A study of Mus musculus with 5 samples.

Results

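The 10 LIM homeobox genes of the mouse other than the tooth pair *Lhx6* and *Lhx8* were examined for H3K27me3, the trimethylated form of lysine 27 of histone H3, in molar mesenchyme. They are *Lhx1*, *Lhx2*, *Lhx3*, *Lhx4*, *Lhx5*, *Lhx9*, *Isl1*, *Isl2*, *Lmx1a* and *Lmx1b*. They were chosen by gene name, as 10 of 21938 protein-coding genes of the GENCODE M21 annotation on the GRCm38 build, and each was taken as its gene body plus 5 kb before and after it. The choice of these genes, and of those set beside them, was made with earlier results of these data known. The tissue came from wildtype C57BL/6 mice at postnatal day 3, and the dental epithelium had been taken off before the mesenchyme was collected. The labels name no altered allele and no treatment. Chromatin immunoprecipitation followed by sequencing (ChIP-seq) gave 5 libraries, namely 2 with an antibody against H3K27me3, 2 of input chromatin and 1 with a nonspecific IgG antibody. The labels do not say whether the libraries came from separate animals or from pooled molars, so an SD below is the spread between 2 libraries, which may be technical.

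LIM homeodomain proteins are transcription factors in which a pair of LIM domains, which bind cofactors of the Ldb family, stands before a DNA-binding homeodomain. Different members are known for specifying neurons, pituitary cells, limb territories, heart and pancreas cells, while *Lhx6* and *Lhx8* are known for their expression in dental mesenchyme. H3K27me3 is placed by Polycomb repressive complex 2, whose methyltransferase is Ezh2, and it is known for marking silent developmental regulators, often over CpG-rich DNA.

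The sequences below show what lay under the peaks of these genes on the plus strand of GRCm38, with each CpG dinucleotide in capitals. The first 4 are stretches covered by a peak of H3K27me3 replicate 1 called against input and by a peak of replicate 2. Among such stretches, each is the shared stretch closest to the 5′ end of its gene that touched no annotated exon. They lay at chr5:120429644-120429839, in the 5′ flank of *Lhx5* and within the antisense gene *Gm27199*, at chr11:84517792-84517955 in the 3′ flank of *Lhx1*, at chr1:155740226-155740290 in an intron of *Lhx4*, and at chr2:38352020-38352092 in an intron of *Lhx2*. A further stretch that met the rule, in an intron of *Lmx1b*, was 5 bp long and is not printed.
Lhx5 shared stretch: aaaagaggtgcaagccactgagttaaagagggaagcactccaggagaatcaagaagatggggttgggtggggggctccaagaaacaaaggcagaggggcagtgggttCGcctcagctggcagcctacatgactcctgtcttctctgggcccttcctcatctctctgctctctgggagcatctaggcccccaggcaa
Lhx1 shared stretch: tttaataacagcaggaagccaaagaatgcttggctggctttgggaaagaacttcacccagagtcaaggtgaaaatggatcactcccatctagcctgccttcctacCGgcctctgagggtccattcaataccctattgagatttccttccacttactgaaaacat
Lhx4 shared stretch: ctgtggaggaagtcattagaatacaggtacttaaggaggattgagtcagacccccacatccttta
Lhx2 shared stretch: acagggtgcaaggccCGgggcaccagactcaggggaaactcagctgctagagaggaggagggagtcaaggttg
The 4 stretches were 196, 164, 65 and 73 bp long and held 1, 1, 0 and 1 CpG. The peaks around them had fold enrichments of 2.65 to 2.76 in replicate 1 and 2.42 to 2.64 in replicate 2, and each stretch was also covered in the list of replicate 1 against IgG.

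The last 2 sequences are, among peaks called against input, the most CpG-rich of up to 300 bp that touched no annotated exon, 1 from each replicate, chosen after their values were seen. They are shown as the other end of the range of base composition under these peaks. The *Lhx9* peak of replicate 1 lay at chr1:138841493-138841593, in an intron, with a fold enrichment of 2.94. The *Lhx4* peak of replicate 2 lay at chr1:155742838-155743049, also in an intron, with a fold enrichment of 2.41.
Lhx9 CpG-rich peak: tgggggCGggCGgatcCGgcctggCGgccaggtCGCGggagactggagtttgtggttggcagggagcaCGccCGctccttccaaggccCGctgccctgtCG
Lhx4 CpG-rich peak: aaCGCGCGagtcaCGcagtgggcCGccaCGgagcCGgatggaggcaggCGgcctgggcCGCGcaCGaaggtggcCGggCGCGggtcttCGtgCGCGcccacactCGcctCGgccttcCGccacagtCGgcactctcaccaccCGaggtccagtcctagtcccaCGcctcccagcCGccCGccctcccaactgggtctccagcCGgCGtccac
These sequences held 10 CpG in 101 bp and 27 CpG in 212 bp, so stretches with many and with almost no CpG both lay under peaks of the group. Neither CpG-rich peak was part of an overlap between the replicates.

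The authors' peaks were the measurement, in 3 lists. They were called for H3K27me3 replicate 1 against input, for the same library against IgG, and for H3K27me3 replicate 2 against its own input. The lists held 22757, 24881 and 33379 broad peaks at a p-value cutoff of 0.005. The first library had 30.4 M tags after duplicate removal and 49 bp tags, and the second had 49.9 M and 74 bp tags, while the controls had 23.7 to 51.7 M. Depth and tag length differed together between the replicates, so neither can be told apart from the replicate itself. The peaks were weak, with 0, 0 and 4 peaks of the whole lists at a q-value of 0.05 or lower and 0 of these in any of the 10 genes. Peak lists hold no transcript levels, so the tissue label could not be checked against marker genes.

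Every one of the 10 genes had at least 1 peak in each of the 3 lists. Over all protein-coding genes, a peak was found in 25% of windows in replicate 1 against input, in 25.9% against IgG, in 35.7% in replicate 2 and in 15.7% in both replicates. Restricted to genes with windows of 17.3 to 169.5 kb, the range of the 10 genes, the share with a peak in both replicates was 14.2%. The 10 windows together held 115 input-called and 126 IgG-called peaks of replicate 1 and 73 peaks of replicate 2. The mean over both replicates against input was 94 ± 29.7 (SD, n = 2). The deeper replicate had more peaks over the genome and fewer in these windows. Each gene had 4 or more peaks in both replicates, which was the case for 2.53% of protein-coding genes, a threshold chosen after the values were seen.

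The covered share, the percentage of bases of a window that lay under a peak, relates peaks to window length. It does not set gene length aside, since the longest genes, *Lhx4*, *Lmx1b* and *Lmx1a*, had the lowest means over both replicates. The median covered share of the 10 genes was 7.54% for input-called and 8.63% for IgG-called peaks of replicate 1 and 4.33% for replicate 2. The median of the means over both replicates was 6.52%. The median over all protein-coding genes was 0% in every list. In a window of equal length for every gene, 10 kb on each side of the 5′ end, the medians of the 10 genes were 6.97%, 9.09% and 5.70%. This second window was added after the data had been seen. In it the share of the 10 genes ranged from 3.30% to 12.03% for input-called peaks of replicate 1, from 4.62% to 15.9% with IgG as the control, and from 0% to 9.07% in the other replicate.

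**Figure D1:**
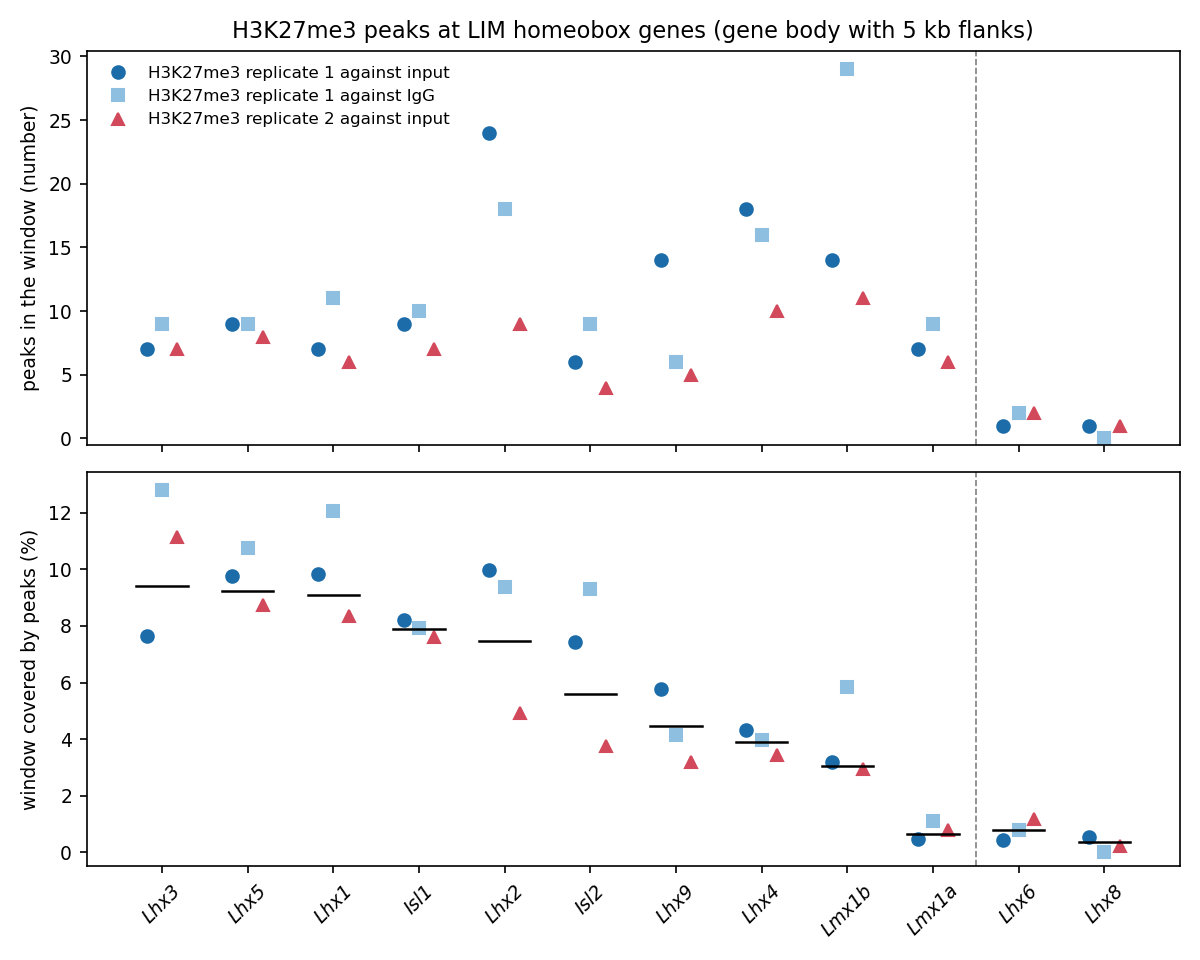
Number of peaks in the gene body plus 5 kb flanks (upper axis) and percentage of that window under peaks (lower axis) for the 10 LIM homeobox genes and for Lhx6 and Lhx8, with 1 symbol for each of the 3 peak lists, a black bar at the mean of both replicates against input and a dashed line before Lhx6 and Lhx8. All 10 genes had between 4 and 29 peaks in every list, whereas Lhx6 and Lhx8 had between 0 and 2, and only Lmx1a lay as low as the tooth pair in the percentage of bases covered.

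For each gene, values are given for replicate 1 against input, then against IgG, then for replicate 2 against input. *Lhx1* and *Lhx5* are close relatives, of which *Lhx1* is known for its part in the head organizer, kidney and spinal interneurons and *Lhx5* for forebrain development. *Lhx1* (ENSMUSG00000018698.15, chr11:84518284-84525535, minus strand) had 7 peaks against input, 11 against IgG and 6 in replicate 2, which covered 9.84%, 12.1% and 8.34% of its window. All of these peaks lay within 10 kb of its 5′ end. *Lhx5* (ENSMUSG00000029595.9, chr5:120431699-120441223, plus strand) had 9, 9 and 8 peaks, which covered 9.77%, 10.8% and 8.73%. The lowest of these 6 values was 8.34%, and every other gene of the group had a lower value in at least 1 list. Of the *Lhx5* peaks, 3 in the input-called list of replicate 1, 5 in its IgG-called list and 3 in replicate 2 lay in the 5′ flank, where *Gm27199* is annotated on the opposite strand. In *Lhx1*, 2, 5 and 2 peaks lay in *Lhx1os*, which is likewise annotated beside the 5′ end. Peaks in *Gm27199* and *Lhx1os* thus lay in the flank of the homeobox gene, outside its body, and within another annotated gene.

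*Lhx2* and *Lhx9*, the relatives of Drosophila apterous, are known for forebrain, limb and, in the case of *Lhx9*, gonad development. *Lhx2* (ENSMUSG00000000247.11, chr2:38339281-38369733, plus strand) had 24, 18 and 9 peaks, which covered 9.99%, 9.38% and 4.92% of the window. It was the gene with the largest spread between the replicates, at 7.45% ± 3.59 (SD, n = 2). Most of its peaks, 19 of 24, 11 of 18 and 6 of 9, lay in introns. A replicate 2 peak at chr2:38339071-38339431 covered the 5′ end itself and had a GC content of 77.6%, whereas the nearest peak of replicate 1 lay 1166 bp away against input and 2538 bp away against IgG. *Lhx9* (ENSMUSG00000019230.14, chr1:138825186-138848577, minus strand) had 14, 6 and 5 peaks, which covered 5.78%, 4.14% and 3.18%. The nearest replicate 2 peak lay 10146 bp into the gene, whereas replicate 1 against input had one at 419 bp. The equal window of 10 kb around the 5′ end of *Lhx9* was accordingly covered to 4.53%, 4.62% and 0%.

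*Lhx3* and *Lhx4* are known for the development of the pituitary and of motor neurons. *Lhx3* (ENSMUSG00000026934.15, chr2:26200212-26208289, minus strand) had 7, 9 and 7 peaks, which covered 7.64%, 12.8% and 11.2% of its window. It was highest of the 10 genes in replicate 2 and against IgG, but the fifth against input. *Lhx4* (ENSMUSG00000026468.14, chr1:155698031-155751684, minus strand) had 18, 16 and 10 peaks over a longer window of 63654 bp, and these covered 4.33%, 3.96% and 3.43%. Of the *Lhx4* peaks, 14 of 18, 13 of 16 and 10 of 10 were intronic. *Lhx4* had peaks within 1 kb of its 5′ end in all 3 lists, at 427, 404 and 796 bp.

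*Isl1* and *Isl2* are the islet factors of motor neurons, and *Isl1* is also known for heart progenitors and pancreatic islets. *Isl1* (ENSMUSG00000042258.13, chr13:116298281-116309689, minus strand) had 9, 10 and 7 peaks, which covered 8.19%, 7.94% and 7.61%. These 3 values were close together, with a mean of 7.90% ± 0.410 (SD, n = 2) over the replicates. No base of *Isl1* was shared by an input-called replicate 1 peak and a replicate 2 peak, while with IgG as the control 2 pairs of peaks overlapped. *Isl2* (ENSMUSG00000032318.12, chr9:55538672-55546180, plus strand) had 6, 9 and 4 peaks, which covered 7.44%, 9.32% and 3.75%. In replicate 2, all 4 *Isl2* peaks lay in the flanks, with 0 in the gene body, against 5 of 6 in exons or introns in replicate 1 against input.

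*Lmx1a* and *Lmx1b* are known for midbrain dopaminergic neurons, and *Lmx1b* also for the dorsal limb and the kidney. *Lmx1b* (ENSMUSG00000038765.13, chr2:33560965-33640511, minus strand) had 14, 29 and 11 peaks, which covered 3.19%, 5.85% and 2.93%. The count against IgG was the highest of the group in any list, while the same library against input gave fewer. Many of its peaks lay near the 5′ end, with 7 of 14, 11 of 29 and 8 of 11 within 10 kb of it. Of those, 2, 3 and 2 lay in the 5′ flank and the others in the gene. The equal window around the 5′ end of *Lmx1b* was covered to 9.48%, 15.9% and 7.17%, more than its whole window in each list. *Lmx1a* (ENSMUSG00000026686.14, chr1:167689237-167848741, plus strand) had 7, 9 and 6 peaks in a window of 169505 bp, and these covered 0.475%, 1.10% and 0.788%. Its covered share was the lowest of the group, but 5 of 7, 6 of 9 and 3 of 6 peaks lay within 10 kb of the 5′ end. In the equal window around the 5′ end, *Lmx1a* was covered to 3.30%, 6.91% and 4.98%, which placed it above 98.4%, 99.1% and 99.1% of protein-coding genes.

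Ordered by the mean of the replicates, the covered share was 9.40% ± 2.48 in *Lhx3*, 9.25% ± 0.732 in *Lhx5*, 9.09% ± 1.07 in *Lhx1*, 7.90% ± 0.410 in *Isl1* and 7.45% ± 3.59 in *Lhx2* (SD, n = 2 for each). The lower part of the order was 5.59% ± 2.61 in *Isl2*, 4.48% ± 1.84 in *Lhx9*, 3.88% ± 0.639 in *Lhx4*, 3.06% ± 0.183 in *Lmx1b* and 0.632% ± 0.222 in *Lmx1a*. Neighbours in this order differed by more than the larger of their SDs in 3 cases, *Lhx1* above *Isl1*, *Lhx4* above *Lmx1b* and *Lmx1b* above *Lmx1a*. The other neighbours did not differ beyond their spread, and no test of these differences was run. *Lhx4*, *Lmx1b* and *Lmx1a*, at the low end of the order, were also the 3 longest genes. The order depended on the window. In the equal window around the 5′ end, *Lmx1b* stood at 8.33% ± 1.63, above *Lhx4* at 4.90% ± 0.778, and *Lhx9* was lowest at 2.27% ± 3.21 (SD, n = 2 for each). No neighbours differed there by more than the larger of their SDs. Apart from *Lmx1a*, each gene lay above 98.4% or more of all protein-coding genes in each list, and *Lmx1a* lay above 91.1%, 95.4% and 89.8%.

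**Figure D2:**
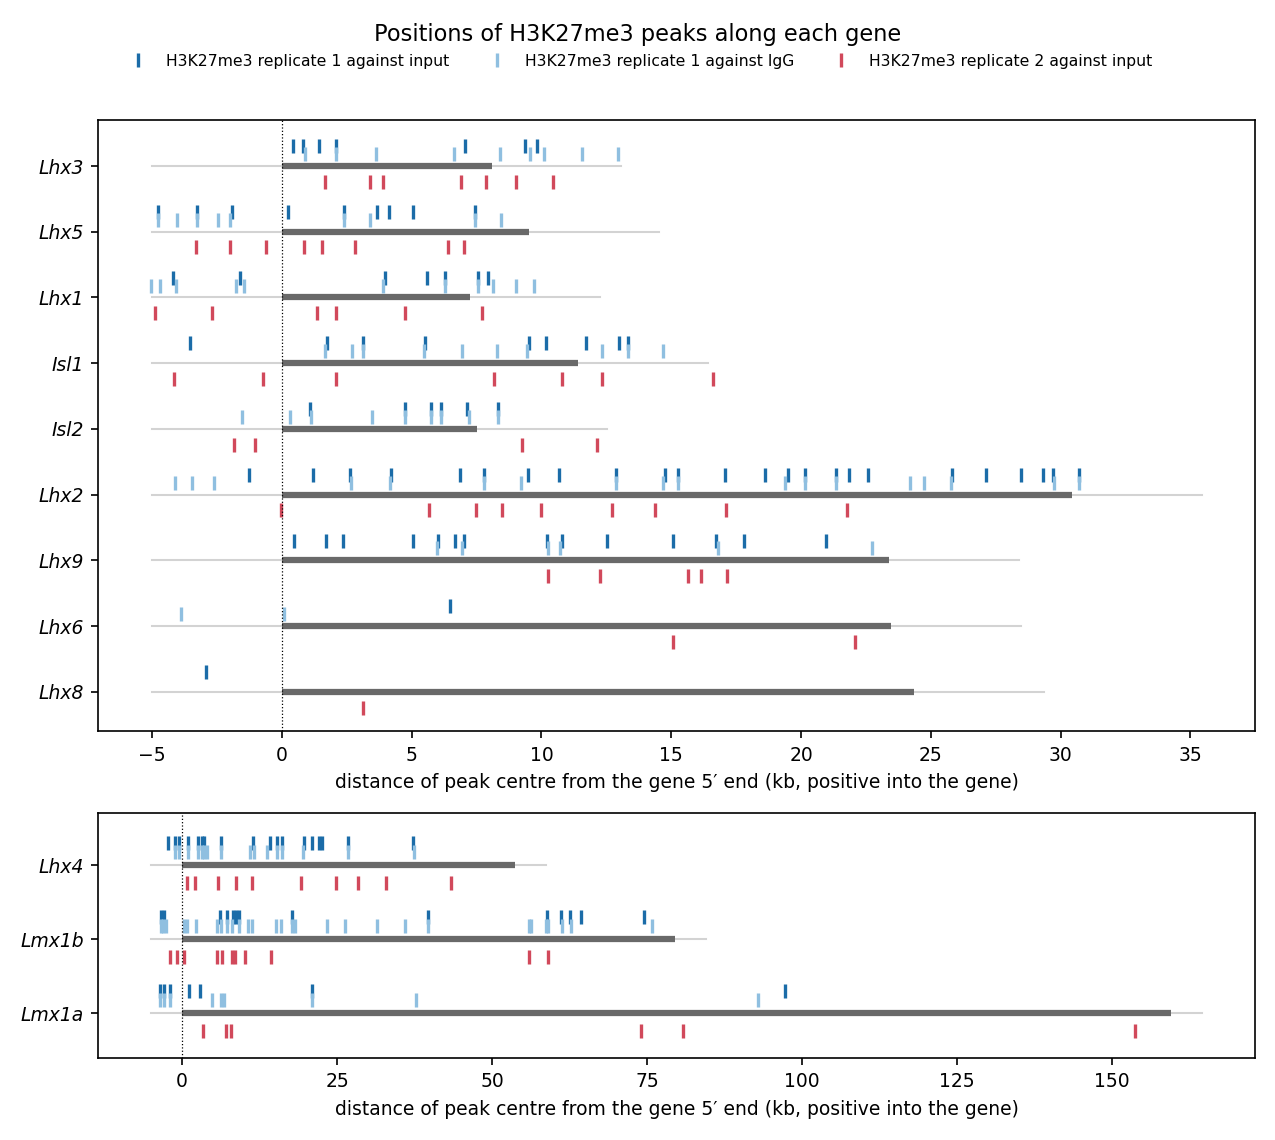
Positions of peak centres along each gene, as distance from the gene 5′ end in kb, with the gene body as a thick bar, the 5 kb flanks as thin lines, and 1 row of ticks for each of the 3 peak lists. Peaks of the 10 genes lay along the whole gene body and both flanks in the shorter genes, gathered towards the 5′ end in Lmx1a and Lmx1b, and Lhx6 and Lhx8 had 0 to 2 peaks in a list.

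A peak within 1 kb of the gene 5′ end was found for 5 of the 10 genes in the input-called list of replicate 1, 4 in its IgG-called list and 6 in replicate 2, compared with 3.87%, 4.52% and 4.16% of protein-coding genes. Both replicates had such a peak in 3 genes, *Lhx4*, *Lhx5* and *Isl2*, compared with 1.04% of protein-coding genes. None of these peaks called against input shared a base between the replicates, whereas in *Lhx4* the IgG-called peak at 888 bp and the replicate 2 peak at 796 bp did. With IgG as the control of replicate 1, the 3 genes were *Lhx4*, *Isl2* and *Lmx1b*, since *Lhx5* had 0 IgG-called peaks within 1 kb. In *Lmx1b* the IgG-called peak at 203 bp held the whole replicate 2 peak at 276 bp. In *Lhx5* the replicate 1 peak began 173 bp inside the gene, whereas replicate 2 had one 495 bp outside it and one 752 bp inside it. In *Isl2* the peaks lay on opposite sides of the 5′ end, 927 bp inside in replicate 1 and 910 bp outside in replicate 2. The peak of the strongest enrichment among these was the replicate 2 peak at chr5:120432451-120432655 in an exon of *Lhx5*, with a fold enrichment of 3.12 and a −log10 p-value of 3.97.

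Coverage was not highest at the 5′ end. Over the 10 genes together, the 2 kb centred on the 5′ end were covered to 3.53% in the input-called list of replicate 1, 4.66% in its IgG-called list and 8.19% in replicate 2. The stretch from 5 to 10 kb downstream was covered to 13.4%, 16.8% and 11.0%, the highest value of the 6 distances in each list. Coverage from 1 to 5 kb downstream was 8.78%, 10.7% and 5.80%, and from 10 to 20 kb it was 5.95%, 5.73% and 5.76%. Beyond 20 kb, where 5 genes contributed, it fell to 1.17%, 1.27% and 0.620%. In *Lhx1*, *Lhx3*, *Lhx5* and *Isl2*, which are shorter than 10 kb, part of the stretch from 5 to 10 kb lies in the 3′ flank.

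**Figure D3:**
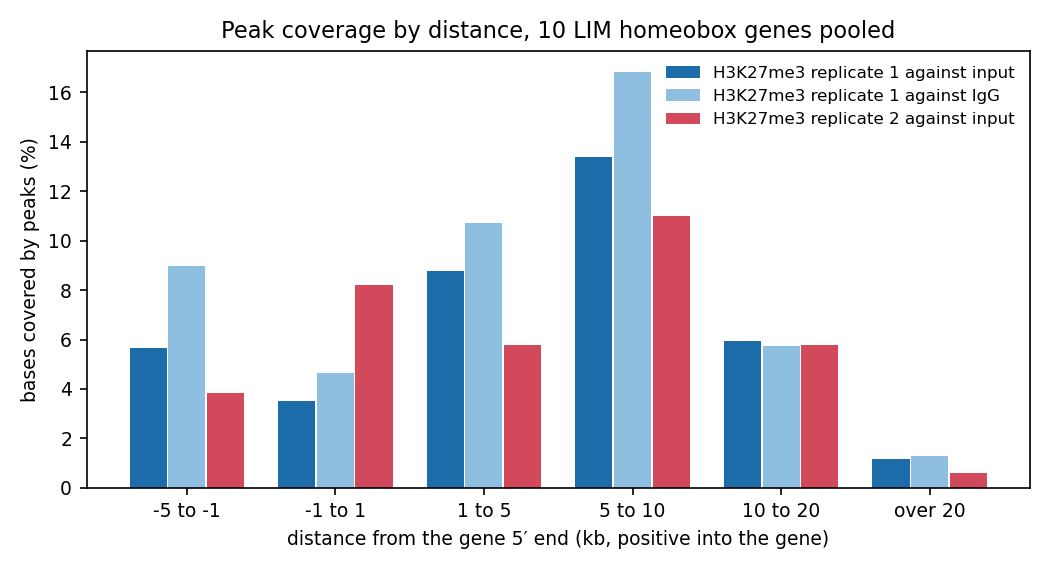
Percentage of bases under peaks in the windows of the 10 LIM homeobox genes together, by distance from the gene 5′ end in kb (positive into the gene), with 1 bar for each peak list. All 3 lists were highest from 5 to 10 kb, at 11.0% to 16.8%, and lowest beyond 20 kb, at 0.620% to 1.27%.

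By annotation, introns held 70 of 115 peaks in replicate 1 against input, 69 of 126 against IgG and 39 of 73 in replicate 2. Exons were touched by 21, 21 and 16 peaks. The 5′ flanks held 15, 22 and 11 peaks and the 3′ flanks 9, 14 and 7. No share over all peaks or over window bases stands beside these counts, so they show no preference for an annotation. Another annotated gene, in most cases an antisense or long noncoding transcript beside the homeobox gene, was touched by 14, 18 and 11 peaks.

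Peaks 5 kb or less apart were joined to runs, since H3K27me3 is known to spread over domains. A run of 10 kb or more touched the window of 6 of the 10 genes in the input-called list of replicate 1, 8 in its IgG-called list and 4 in replicate 2, compared with 1.14%, 1.33% and 0.615% of protein-coding genes. *Lhx2*, *Lhx4* and *Lhx5* had one in both replicates, compared with 0.447% of protein-coding genes. The longest run of *Lhx2* was 35.8 kb against input, where it took in the whole gene, 28.2 kb with IgG as the control and 16.2 kb in replicate 2. In *Lhx4* the runs were 29.1, 20.8 and 10.7 kb long, and in *Lhx5* 15.9, 25.0 and 10.4 kb. *Lhx1* had a run of 16.2 kb in replicate 2 and of 15.5 kb against IgG, but of 4.88 kb against input. Runs are given at full length, which can reach past the window. The *Lhx1* run against IgG lay wholly before the 5′ end of the gene and reached beyond the 5 kb flank. Both replicate 1 runs of *Lhx5* likewise began before its window. The length of a run depends on how densely peaks were called, and a single missing peak can break it.

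The positions of single peaks differed between the replicates. Of the replicate 1 peaks in the 10 genes, 13 of 115 were overlapped by a replicate 2 peak, or 11.3% (95% Wilson interval 6.73% to 18.4%), compared with 2.85% of all replicate 1 peaks. In the other direction, 13 of 73 replicate 2 peaks were overlapped, or 17.8% (10.7% to 28.1%), compared with 1.90% of all. These intervals cover counting error only and treat peaks as independent, which neighbouring peaks of a gene are not. A peak of the other replicate was near more often than it overlapped. The median distance to the nearest replicate 2 peak was 1011 bp for replicate 1 peaks of the group and 13435 bp for all replicate 1 peaks. Within 1 kb, 49.6% of replicate 1 peaks in these genes had a replicate 2 peak, compared with 12.7% of all, and 67.1% of replicate 2 peaks had a replicate 1 peak, compared with 7.47% of all. A dense set of peaks in both lists brings such distances down whether or not single positions recur, and that was not tested apart.

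The 13 overlapping pairs of peaks called against input fell in 7 genes, with 3 each in *Lhx2* and *Lmx1b*, 2 each in *Lhx3* and *Lhx5*, and 1 each in *Lhx1*, *Lhx4* and *Lhx9*. *Isl1*, *Isl2* and *Lmx1a* had none among these input-called peaks. With replicate 1 called against IgG there were 21 pairs, 2 of them in *Isl1*, and *Isl2* and *Lmx1a* again had 0. The shared stretches were 5 to 196 bp long, with a median of 118 bp, and the *Lhx5* stretch printed above was the longest. Of the 13 pairs, 8 also overlapped a peak called against IgG. Within replicate 1, 73 of 115 input-called peaks of these genes, or 63.5% (54.4% to 71.7%), shared at least 1 base with an IgG-called peak, compared with 51.0% of all. Both of these lists hold the same immunoprecipitated library, whereas the replicates differed in library, input, depth and tag length together. The share between controls therefore cannot be set against the share between replicates.

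Single peaks in the 10 genes were longer than those of the whole lists but about as strong. Their median length was 157 bp (input) and 162.5 bp (IgG) in replicate 1 and 204 bp in replicate 2, compared with 119, 120 and 181 bp over all peaks. Median fold enrichments were 2.73, 2.70 and 2.50, compared with 2.63, 2.66 and 2.45. A fold enrichment of 3 or higher was reached by 12, 11 and 2 peaks of the group. That was 10.4%, 8.73% and 2.74% of its peaks, compared with 8.96%, 10.7% and 1.56% of all. The highest values were 3.43 in an intron of *Lmx1b* against IgG, and, against input, 3.33 in an exon of *Lhx9* at chr1:138841882-138841930 and 3.33 in an intron of *Lhx4* at chr1:155731873-155732223. In replicate 2 the highest was 3.28, at chr11:84528177-84528248 in the 5′ flank of *Lhx1*.

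CpG-rich DNA, which the choice of genes did not use, was common under their peaks. A CpG island was taken as any 200 bp stretch with a GC content of 50% or more and a ratio of observed to expected CpG of 0.6 or more, which covered 2.62% of the genome. An island was touched by 37 of 115 peaks in replicate 1 against input, or 32.2% (95% Wilson interval 24.3% to 41.2%), compared with 9.40% of all peaks and 13.5% of peaks in windows of protein-coding genes. In replicate 2 it was touched by 28 of 73, or 38.4% (28.1% to 49.8%), compared with 6.42% and 10.1%. Against IgG it was touched by 37 of 126, or 29.4%, compared with 10.6% and 15.1%. The windows themselves were island-rich, with 14.2% of their bases in islands compared with 3.69% for protein-coding genes. Of the bases under peaks of the group, 30.5%, 26.7% and 29.7% lay in islands, which was a higher share than of their windows. For all protein-coding windows these shares were 12.7%, 14.4% and 9.09%, likewise above the 3.69% of those windows. In proportion to the windows, that rise was larger than in the 10 genes in each list. A higher island share under peaks than in windows was therefore not particular to the group.

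**Figure D4:**
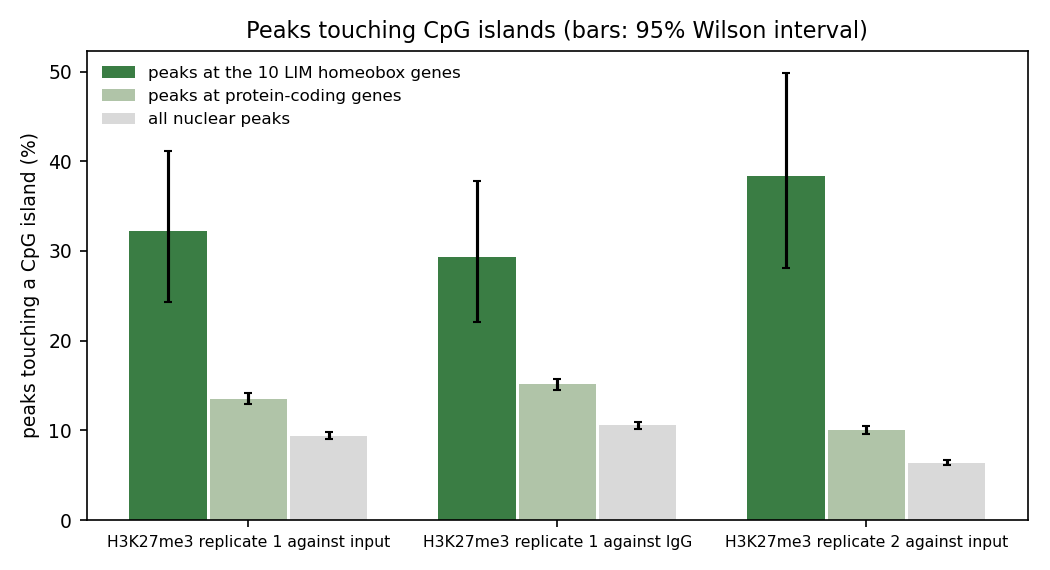
Percentage of peaks that touch a CpG island in each of the 3 peak lists, for peaks of the 10 LIM homeobox genes, for peaks in windows of protein-coding genes and for all peaks, with 95% Wilson intervals. The 10 genes stood at 29.4% to 38.4% and the other sets at 6.42% to 15.1%. The windows of the 10 genes were themselves richer in islands than those of protein-coding genes.

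Islands were unevenly spread over the 10 genes. They took up 47.2% of the window of *Lhx1*, 43.3% of that of *Lhx5*, 33.3% of that of *Isl2* and 21.03% of that of *Lhx2*. The share was 19.99% in *Lhx3*, 18.6% in *Isl1*, 15.1% in *Lhx9*, 14.0% in *Lmx1b*, 12.2% in *Lhx4* and 3.43% in *Lmx1a*. *Lhx1* and *Lhx5*, highest by islands, stood with *Lhx3* at the top by covered share, where these genes did not differ beyond their spread. *Isl2*, next by islands, had a mean covered share of 5.59%, below *Isl1* at 7.90% and *Lhx2* at 7.45%, which had fewer islands. A relation between islands and covered share was not tested. In *Isl2*, 4 of 6 and 5 of 9 replicate 1 peaks touched an island, while 0 of 4 replicate 2 peaks did. In *Isl1*, islands were touched by 0 of 9 and 1 of 10 peaks in replicate 1 and 3 of 7 in replicate 2. The 5′ end itself lay in an island in 7 of the 10 genes, the exceptions being *Lhx3*, *Lhx4* and *Isl2*. RefSeq promoters on GRCm38.p6, from 250 bases before to 50 after the start of transcription, were at hand for 9 of the 10 genes. Their median was 7.67 CpG per 100 bp and 66.0% GC, compared with 2.33 and 52.7% over 27025 genes, and ranged from 2 per 100 bp in *Lhx9* to 12.3 in *Isl1*.

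The tooth pair had fewer peaks than the 10 genes, in windows with a median length of 33911 bp compared with 27400.5 bp. *Lhx6* had 1 peak in the input-called list of replicate 1, 2 in its IgG-called list and 2 in replicate 2, which covered 0.430%, 0.780% and 1.16% of its window. *Lhx8* had 1, 0 and 1 peaks, which covered 0.524%, 0% and 0.207%. By covered share, *Lhx6* lay above 90.4%, 93.4% and 93.5% of protein-coding genes and *Lhx8* above 91.7%, 0% and 71.1%. Both genes of the pair had a peak in both replicates, compared with 15.7% of protein-coding genes. Their means over the replicates were 0.795% ± 0.516 and 0.365% ± 0.224 (SD, n = 2), below every one of the 10 genes except *Lmx1a*, whose 0.632% ± 0.222 lay between them. In the equal window around the 5′ end, *Lhx6* was covered to 1.65%, 2.23% and 0% and *Lhx8* to 0.900%, 0% and 1.13%. The median over all protein-coding genes was 0% in each list. *Lhx6* lay above 96.3%, 97.1% and 0% of them and *Lhx8* above 92.3%, 0% and 89.0%. In this window the 10 genes and the tooth pair did not overlap in either list of replicate 1. In replicate 2 they overlapped through *Lhx9* alone, at 0%. A peak called against IgG covered the 5′ end of *Lhx6*, but neither list against input had one within 1 kb of it.

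The genes for cofactors and LIM-only partners of these proteins were taken as a further list, *Ldb1*, *Ldb2*, *Lmo1*, *Lmo2*, *Lmo3*, *Lmo4*, *Ssbp2*, *Ssbp3*, *Ssbp4* and *Rlim*. The Ldb proteins bridge LIM domains of different factors, the Ssbp proteins stabilize that complex, the Lmo proteins compete for it and Rlim marks it for degradation. Of these 10 genes, 3 had a peak in the input-called list of replicate 1, 3 in its IgG-called list and 7 in replicate 2, and 3 had one in both replicates. Over all protein-coding genes the shares were 25%, 25.9%, 35.7% and 15.7%. The 3 with a peak in both replicates were *Ldb2* with 2, 3 and 2 peaks, *Lmo3* with 4, 5 and 6, and *Ssbp2* with 2, 0 and 4. Their windows of 337549, 229051 and 253147 bp were the longest of the list and longer than that of any of the 10 homeobox genes. The shares over all protein-coding genes were not matched for window length here. None of the 10 cofactor and LIM-only genes had a peak within 1 kb of the 5′ end or a run of 10 kb in both replicates. Such a peak was found for 1.04% and such a run for 0.447% of protein-coding genes, so 0 of 10 genes is near those shares. The median covered share of the list, as the mean of the replicates, was 0.158%, compared with 6.52% for the 10 homeobox genes and 0% for all protein-coding genes. *Lmo2* had 5 peaks against IgG, which covered 2.59% of its window, but 0 in the same library against input. In replicate 2 it had 2 peaks, which covered 0.953%.

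Under stricter thresholds few calls were left in these genes. With a fold enrichment of 3 or higher, 1 of the 10 genes, *Lhx1*, had a peak in both replicates, compared with 0.251% of protein-coding genes. With a p-value under 0.001 it was 3, namely *Lhx1*, *Lhx9* and *Lmx1b*, compared with 0.707%. Without the flanks, 9 of the 10 genes had a peak in both, with *Isl2* lost, compared with 12.3%.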

How the data were processed

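Molar chromatin was profiled in 5 libraries, grouped by the descriptions given to each sample. Per the study's methods and processing notes, BWA mapped the reads to GRCm38, SAMtools sorted those that mapped uniquely, and MACS2 2.1.1 called broad peaks with a p-value below 0.005. Duplicate tags were reduced to 1 per position (file headers), local background came from 1 kb and 10 kb windows, the larger library was scaled to the smaller, and each H3K27me3 library was called against 1 control without pooling. The applied fragment lengths, 46 bp and 71 bp, were shorter than the tags, which narrows peaks. As deposited, pileup is a signal that gives the mean tag number over a peak, and fold enrichment is a ratio of pileup to control background with a pseudocount of 1. It therefore depends on depth and is read within a list. The authors deposited p-values and q-values as −log10. The 3 deposited formats of a list were compared and held the same peaks.

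Peaks were assigned with Python 3.11.15, NumPy 2.4.6, pandas 2.3.3 and pysam 0.24.0 to GENCODE M21 gene bodies with 5 kb on each side. A peak belonged to a window with at least 1 base in it. Runs, distances and overlaps were computed from the same lists, and the code was tested on simulated peaks. No test was run, the H3K27me3 libraries being of 1 group, and counts stand beside the share over all protein-coding genes. Values are described for each list, and Wilson intervals cover counting error only. The 10 homeobox genes, the tooth pair and the genes of the cofactor list with a peak in both replicates were named. The members and lists were chosen with earlier results of these data known. Alternatives were stricter peak thresholds, equal peak numbers, other flanks, 5′ windows, overlaps and joining distances, IgG in place of input, and each replicate left out.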

Additional observations from a re-analysis of the deposited data

How the results depend on the processing

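Depth differed between the 2 H3K27me3 libraries together with tag length. No alternative varied depth itself, so its effect on the placement of single peaks was not tested. A peak in both replicates was found for 10 genes at the authors' threshold, for 1 at a fold enrichment of 3 or higher and for 3 at a p-value under 0.001, compared with 15.7%, 0.251% and 0.707% of protein-coding genes. Under these 2 thresholds in the same order, peaks per replicate went from 94 to 7 and 7, the median covered share from 6.52% to 0.305% and 0.26%, the share of replicate 1 peaks overlapped by replicate 2 from 11.3% to 0% and 0%, and the share overlapped by IgG-called peaks from 63.5% to 33.3% and 75%. The 3 genes with a 5′ peak in both replicates and the 3 with a run of 10 kb in both became 0 under either threshold. The 5′ count was 1 within 0.5 kb, 9 within 5 kb and 6 at the start of any protein-coding transcript. The run count was 0 with peaks joined over 2 kb, 7 with peaks joined over 10 kb and 7 for runs of 5 kb. The overlap between replicates was 6.09% where 50% of the shorter peak had to be shared and 49.6% where a peak within 1 kb sufficed. Leaving out either replicate gave 10 genes with a peak, 5 to 6 genes with a 5′ peak, 4 to 6 with a run, 73 to 115 peaks and a median covered share of 4.33% to 7.54%. Without replicate 2 the run count was 6, and without either replicate the 5′ count rose, since a call then no longer had to recur. Equal peak numbers and IgG in place of input left the count of genes with a peak, the 5′ count, the run count, the number of peaks, the median covered share and the overlap between replicates within the spread between replicates, the counting interval of a share or, for a count of genes, 1.5 times. So did flanks of 0 or 10 kb for the count of genes with a peak, the number of peaks, the median covered share and both overlaps. With IgG the 5′ count stayed at 3, but *Lmx1b* took the place of *Lhx5*. The equal window around the 5′ end was run for covered shares alone, and its median stayed within that spread. For covered shares of single genes, 31 of 70 alternatives stayed within 1 SD of the replicates and 39 moved further, not counting those that leave out a replicate, which with 2 replicates cannot move a mean by 1 SD. The cause of these changes beyond the thresholds themselves was not tested. No paired analysis was possible because the result comes from no test, each replicate being a separate peak list with its own control.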
